A study of Mus musculus with 15 samples.

Results

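The matrix metalloproteinases (Mmp), the Adam and Adamts metalloproteinases with the Adamts-like proteins (Adamtsl), and the tissue inhibitors of metalloproteinases (Timp) were followed in pancreatic tumours of mice. Members were taken by gene symbol alone: every array probe whose symbol began with Mmp, Adam, Adamts or Adamtsl followed by a digit, or was Timp1, Timp2, Timp3 or Timp4. This gave 154 probes of 78 genes. Detection required that the array software gave a probe p under 0.05 on 3 or more of the 15 arrays, which 60 probes of 38 genes met. The 38 genes stood among 11924 detected genes and 15098 detected features in all. Detected were 13 of 21 Mmp genes, 12 of 32 Adam genes, 8 of 17 Adamts genes, 2 of 4 Adamtsl genes and 3 of 4 Timp genes. Of the 40 undetected genes, 27 were detected on 0 arrays, 4 on 1 array and 9 on 2 arrays. Because detection on 3 arrays can be met by 1 group alone, counts over the 38 genes describe these genes and are no test of the families.

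All 15 arrays held RNA from pancreatic ductal adenocarcinoma (PDAC) of αSMA-tk positive mice with a mixed C57BL/6 and Balb/c genetic background. The transgene places viral thymidine kinase under the promoter of alpha smooth muscle actin, so that ganciclovir (GCV) kills dividing cells that use this promoter, chiefly myofibroblasts. The early control and late control groups carried the same transgene and received no GCV. Early ablation mice received GCV at the stage of pancreatic intraepithelial neoplasia (PanIN), the precursor lesion of the tumour. Late ablation mice received it once PDAC was present, and the last group received GCV at the PDAC stage together with anti-CTLA4, which blocks an inhibitory receptor on T cells. Each group had 3 arrays. Each array has its own number in the labels, but nothing there says that each number is a separate animal. How much of the spread behind the p-values lies between animals is therefore not known, and part of it may be technical. Smooth muscle outside the tumour stroma uses the same promoter, and the age of the mice was not given.

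Mmp enzymes cut collagens, laminins, elastin and other matrix proteins, and are secreted as inactive precursors or held at the cell membrane. Adam proteins sit in the membrane, where the catalytically active ones release growth factors, cytokines and receptors from the cell surface, and Adamts enzymes are secreted and trim proteoglycans and procollagens. Timp proteins block the active site of these enzymes. In pancreatic tumours the fibroblast-rich stroma and infiltrating macrophages are known producers of Mmp2, Mmp14 and Mmp9, and duct-like epithelium of Mmp7.

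Values below are log2 normalized signal, and each difference is a difference of group means on that scale with its standard error (SE) from a limma model over all 15 arrays, n = 3 arrays a group. Adjusted p is Benjamini-Hochberg over the 15098 features. A level cannot be compared between genes, since each gene has its own probe, and in bulk tissue fewer cells of a type cannot be told apart from less RNA per cell.

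The share of detected probes, of 45281, ran from 38.5% to 43.5% per array. Early ablation array 1 stood apart in its pancreatic acinar genes, with a mean of 6.60 against 8.67 to 12.68 on the other 14 arrays. The class II gene H2-Ea was bright on early control arrays 2 and 3 (10.35 and 9.92) and undetected on the other 13, and the mixed background was not resolved by the labels. Late control array 1 and late ablation array 1 were the best match of each other (rank correlation 0.972). The defining fibroblast markers (9 of 9) and ductal markers (7 of 7) were detected in the tumours, whereas the macrophage marker Cd68, the smooth muscle marker Cnn1 and the acinar marker Pnlip were not. The summed smooth muscle and pericyte list, which holds Acta2, ranged from 11.28 to 13.65 on early ablation and 11.61 to 12.54 on early control arrays, and from 10.79 to 12.66 on late ablation and 10.71 to 12.95 on late control arrays, so the list overlapped between ablated and control arrays at both stages. The 3 anti-CTLA4 arrays came in a table of their own, so table and treatment cannot be told apart in any comparison with them.

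No member passed an adjusted p of 0.05 in any of the 6 comparisons or in the F-test over the 5 groups. Over all features 0% were called in the early ablation, late ablation, stage and interaction comparisons, 0.00662% in each anti-CTLA4 comparison and 0.0331% (5 features) in the F-test. The smallest adjusted F-test p among members was 0.0759, for Mmp28. At an unadjusted F-test p under 0.05 there were 7 members (Mmp28, Mmp14, Mmp24, Adam4, Adam12, Adam23 and Timp3) of 38, against 13.5% of all features. With array weights, which limma estimated from these same data, members did pass. Adam4 passed with early ablation, beside 67 of the 15098 features. Mmp28, Adam23, Mmp24 and Mmp14 passed with anti-CTLA4 against late control, beside 838 features. In the F-test 7 members passed, beside 2031 features. What follows gives levels and differences with their error from the unweighted fit, in which none is a called change.

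**Figure D1:**
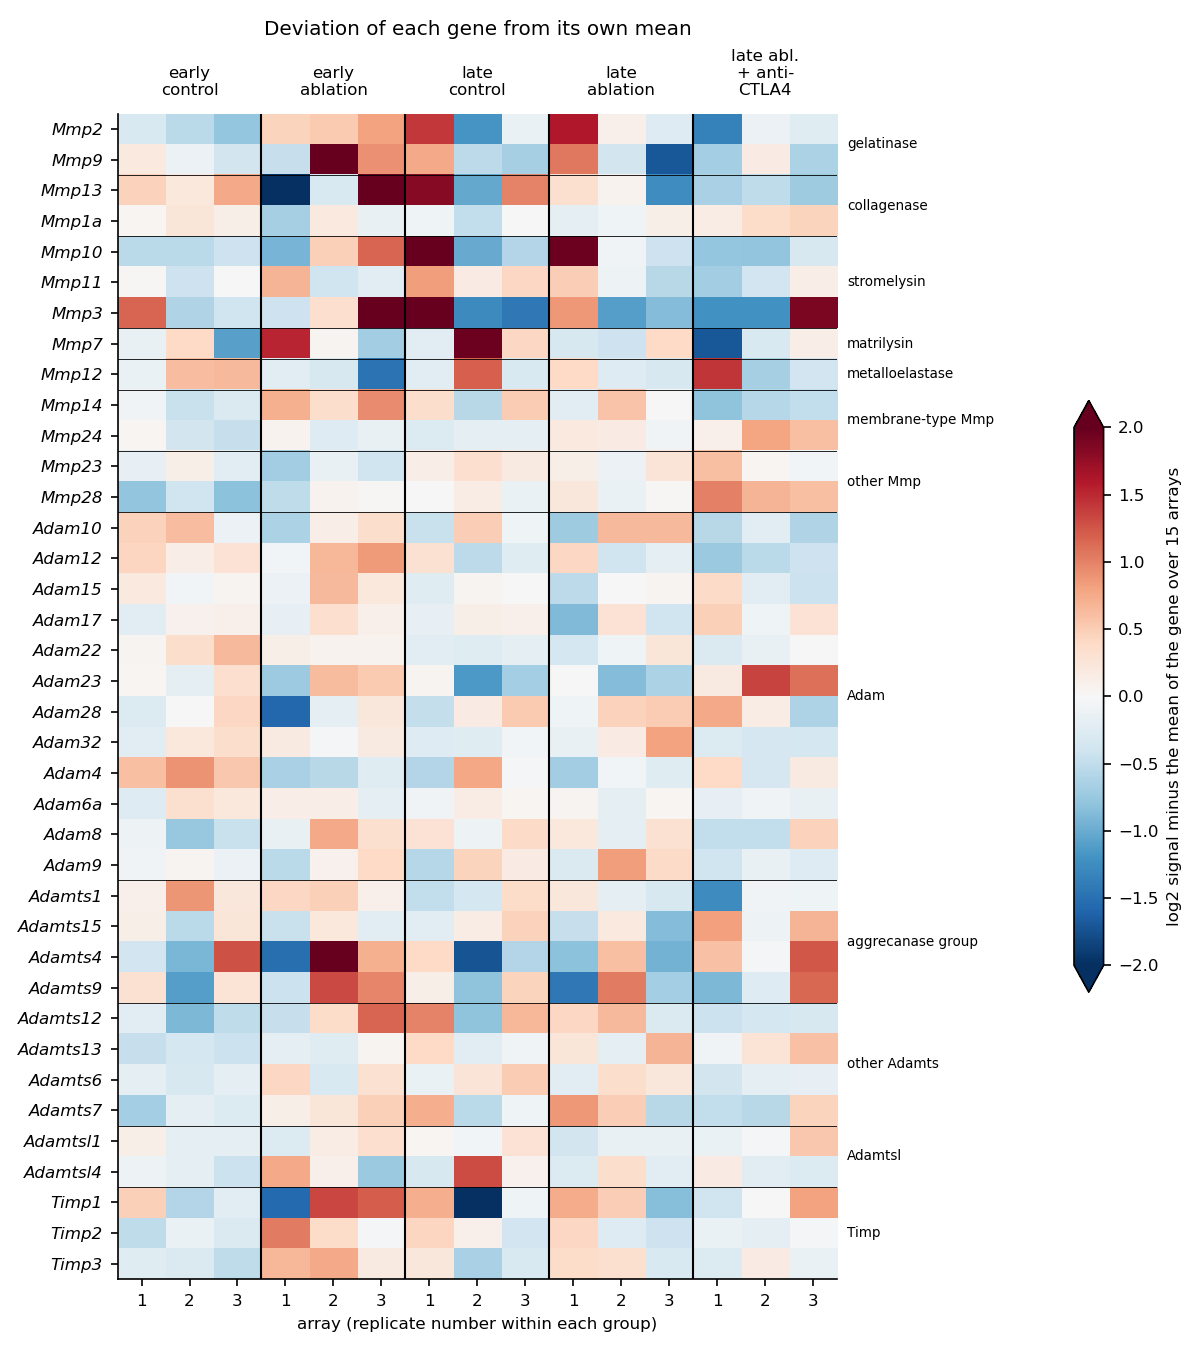
Each row is 1 of the 38 detected genes, ordered by role, and each column 1 array. Colour gives the log2 signal minus that gene's mean over the 15 arrays, and the scale ends at -2 and 2. Genes such as Mmp3, Mmp10, Mmp13 and Timp1 differ between arrays of 1 group as much as between groups, while Mmp28 has its lowest mean on early control and its highest on anti-CTLA4 arrays.

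Among the detected Mmp genes 6 lie next to each other on chromosome 9, in a run of 10 adjacent Mmp genes with 0 other protein-coding genes between them (order Mmp13, Mmp12, Mmp1b, Mmp3, Mmp1a, Mmp10, Mmp8, Mmp27, Mmp20, Mmp7 in RefSeq). RefSeq promoter sequence (GRCm38.p6) was at hand for 26 of the 38 members. Mmp2 and Mmp9 were not among them, and members without sequence were not searched. The AP-1 letters TGANTCA were searched on both strands in the 250 bases before each start. Of the 26 members 6 had these letters, which were the same 6 clustered genes. Of 27025 genes searched in the same way 7.82% had the letters. The letters TATAAA were present in 6 of the 26 members (8.94% of all genes), of which 5 are clustered Mmp genes and 1 is Adamts1. The letters GGGCGG, the core of a GC box, were present in 14 of the 26 (35.4% of all genes), among them Mmp14, Timp1, Timp2 and Timp3 and none of the clustered genes. The 100 bases before the start of the 6 clustered genes are shown because they share these letters, with each AP-1 match in capitals. For Mmp12 the match lies before the second of 2 annotated starts, and for Mmp7 before the first of 2.
Mmp13, chr9:7272414-7272513, plus strand: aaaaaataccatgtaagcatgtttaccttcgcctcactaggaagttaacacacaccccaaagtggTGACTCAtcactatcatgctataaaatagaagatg
Mmp12, chr9:7347274-7347373, plus strand: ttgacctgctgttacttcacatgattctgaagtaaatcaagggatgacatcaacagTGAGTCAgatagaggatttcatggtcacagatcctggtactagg
Mmp3, chr9:7445722-7445821, plus strand: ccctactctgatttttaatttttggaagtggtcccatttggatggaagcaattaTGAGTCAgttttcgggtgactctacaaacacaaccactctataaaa
Mmp1a, chr9:7464041-7464140, plus strand: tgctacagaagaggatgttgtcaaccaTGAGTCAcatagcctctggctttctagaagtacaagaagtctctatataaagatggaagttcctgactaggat
Mmp10, chr9:7502242-7502341, plus strand: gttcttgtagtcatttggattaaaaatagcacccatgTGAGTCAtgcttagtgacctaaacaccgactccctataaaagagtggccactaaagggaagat
Mmp7, chr9:7691990-7692089, plus strand: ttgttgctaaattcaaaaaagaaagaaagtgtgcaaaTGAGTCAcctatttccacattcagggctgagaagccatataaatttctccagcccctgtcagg

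The same stretch is shown for Mmp14, Timp2 and Timp3, the 3 members with the smallest unadjusted p among those higher on early ablation arrays. It holds no AP-1 match in any of them, which says only that these letters are not in the window.
Mmp14, chr14:54431498-54431597, plus strand: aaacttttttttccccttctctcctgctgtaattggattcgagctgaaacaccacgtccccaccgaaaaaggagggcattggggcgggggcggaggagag
Timp2, chr11:118355412-118355511, minus strand: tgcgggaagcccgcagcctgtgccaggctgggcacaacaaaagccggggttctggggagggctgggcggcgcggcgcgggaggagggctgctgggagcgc
Timp3, chr10:86300312-86300411, plus strand: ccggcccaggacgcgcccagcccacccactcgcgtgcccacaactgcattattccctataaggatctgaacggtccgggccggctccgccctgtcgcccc

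The first comparison asks how these genes stood when GCV had been given at the precursor stage. The gelatinase Mmp2, the membrane-bound Mmp14 and the inhibitors Timp2 and Timp3 were each higher on all 3 early ablation arrays than on any early control array, with mean differences of 0.76 to 1.13, and none passed the adjusted threshold. Of the 38 members 26 had a higher mean on early ablation arrays, against 49.1% of all features, with a median difference of 0.19 against -0.01 for all features. Median scaling of the arrays raised the median of all features itself by 0.25, and the members' median then lay 0.24 above it, with 31 members higher. Unadjusted p was under 0.05 for 6 members (Mmp14, Mmp28, Adam8, Timp2 and Timp3 higher, Adam4 lower), 15.8% of the 38 against 8.13% of all features. The 2 groups did not overlap for 8 members (Adamts13, undetected on all 6 arrays, among them), 21.1% against 21.4% of all features, so non-overlap was as frequent among members as elsewhere. Without early control arrays 2 and 3 only 1 early control array was left, so no count is given for that fit. The differences of Timp1 (-0.14) and Adamts1 (0.23) then had the opposite sign to those of the full fit.

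Mmp14 anchors collagen cleavage at the cell surface and activates the Mmp2 precursor. Its signal was 12.07, 11.70 and 11.86 on the 3 early control arrays and 12.85, 12.49 and 13.09 on the early ablation arrays. All 3 early ablation arrays lay above all 3 early control arrays. The means were 12.81 ± 0.301 and 11.87 ± 0.184 (SD), a difference of 0.93 (SE 0.285, limma unadjusted p = 0.00552, limma adjusted p = 0.533). Leaving out single arrays moved it between 0.80 and 1.10.

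Mmp2, gelatinase A, cuts denatured collagen and the collagen of basement membranes. It read 10.92, 10.68 and 10.45 on early control arrays and 11.67, 11.74 and 12.02 on early ablation arrays. These 2 groups were tight and separate, but the late groups below spread widely, and the shared estimate of spread was accordingly large. The difference was 1.13 (SE 0.575, limma adjusted p = 0.627). Mmp9, gelatinase B, a product of neutrophils and macrophages as well as tumour cells, read 8.15, 7.82 and 7.59 on early control arrays and 7.49, 10.37 and 8.86 on early ablation arrays. Array 2 of early ablation was far above the rest and array 1 below every control array. The difference was 1.05 (SE 0.7, adjusted p = 0.706). Leaving out early ablation array 2 gave 0.32, and leaving out its array 1 gave 1.76.

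Of the inhibitors, Timp3, which binds to the matrix and also blocks several Adam and Adamts enzymes, had signals of 10.79, 10.75 and 10.53 on early control arrays and 11.70, 11.79 and 11.21 on early ablation arrays. The groups did not overlap. The difference was 0.88 (SE 0.26, unadjusted p = 0.00445, adjusted p = 0.525). The other 2 detected Timp3 probes, which correlated with this one at 0.77 and 0.42 over the 15 arrays, differed by 1.37 and 0.41 in the same direction. Timp2, which blocks Mmp2 and at the membrane helps Mmp14 to activate it, read 10.38, 10.76 and 10.59 against 11.92, 11.26 and 10.84. Its lowest early ablation array lay just above the highest control array, and the highest early ablation array was array 1, the one with low acinar genes. The difference was 0.76 (SE 0.295, adjusted p = 0.563), and 0.48 without early ablation array 1. Timp1, a broad inhibitor that is induced in inflammation, read 12.36, 11.29 and 11.66 on early control and 10.33, 13.22 and 13.09 on early ablation arrays. Here the early ablation arrays lay on both sides of the controls, and the difference of 0.44 (SE 0.782, adjusted p = 0.899) turned to -0.06 without array 2. A second Timp1 probe gave the same pattern (r = 0.996 over 15 arrays, difference 0.44).

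**Figure D2:**
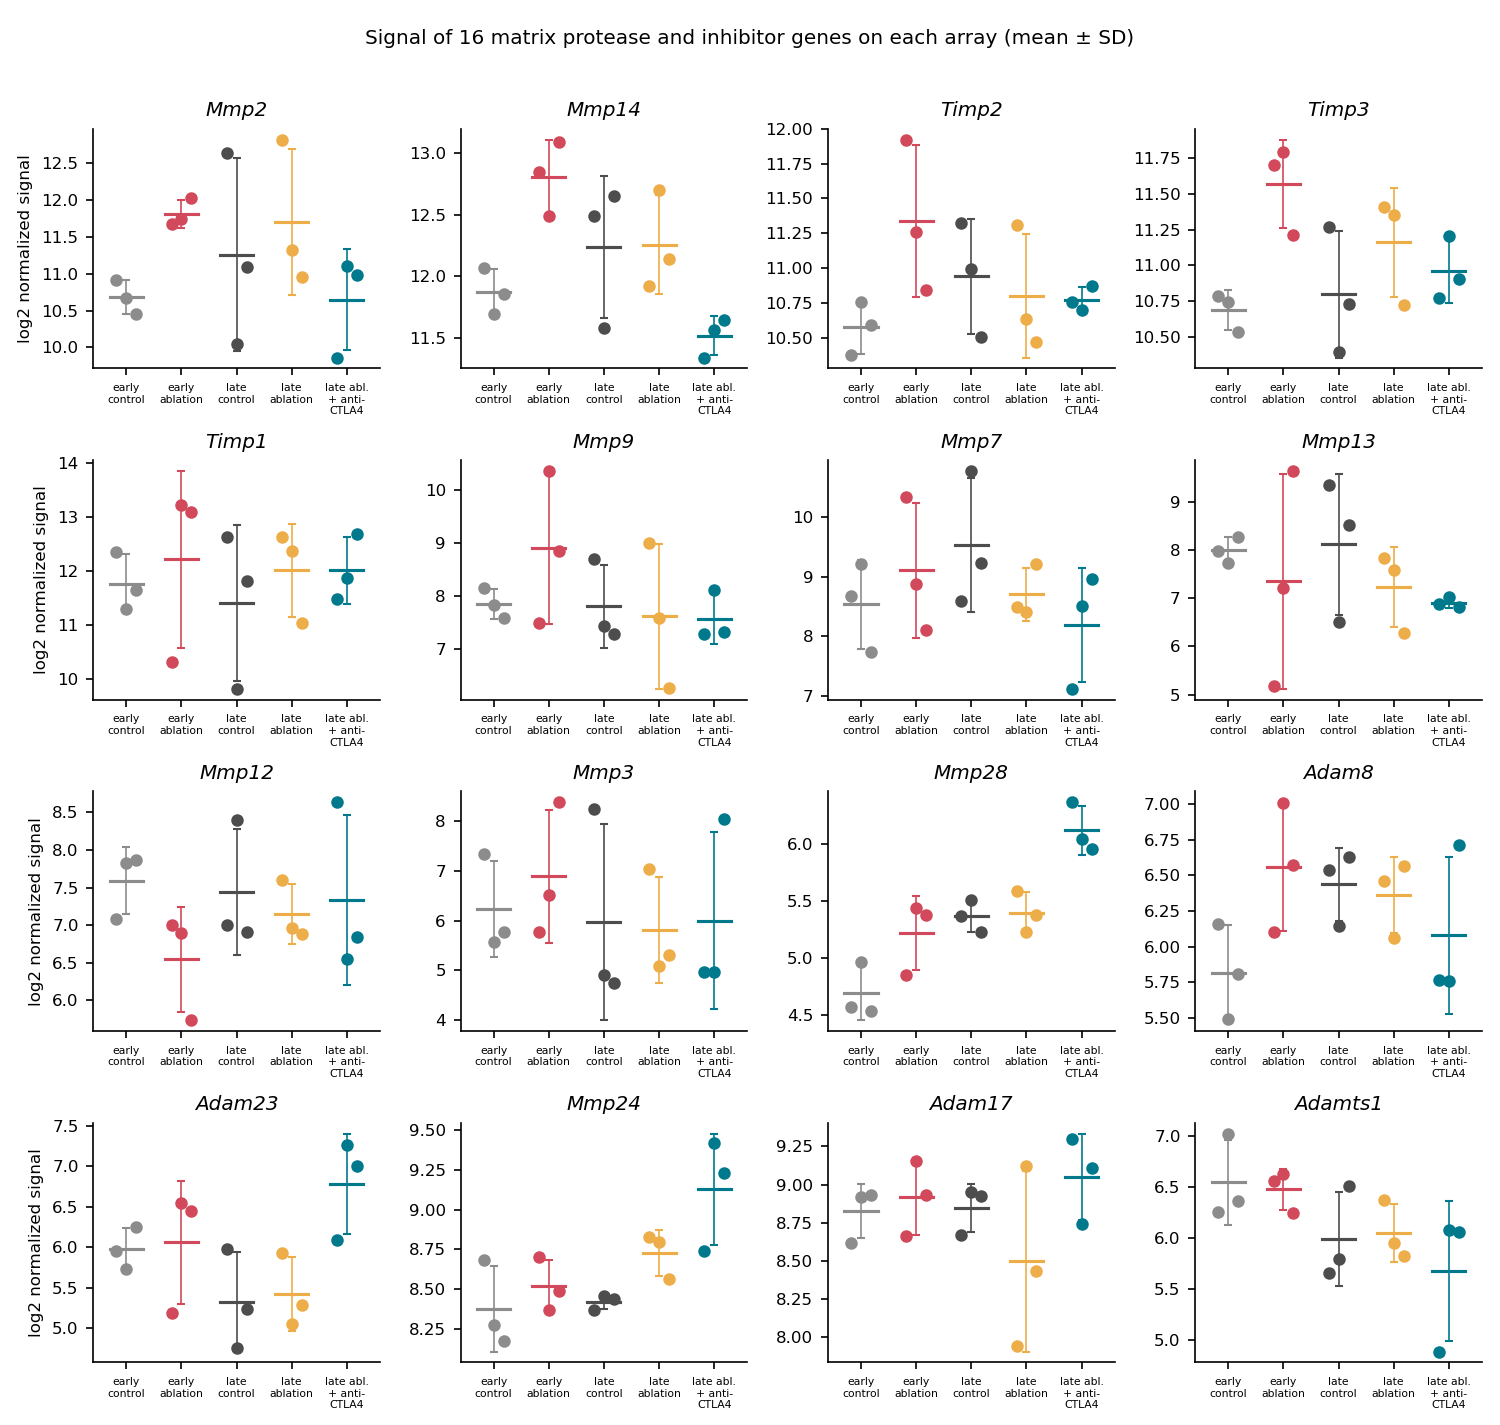
Points are single arrays, horizontal lines group means and bars SD, for 16 genes on the log2 normalized signal scale, each panel with its own range. Mmp2, Mmp14, Timp2 and Timp3 separate early ablation from early control without overlap, and Mmp28 has its lowest mean in early control and its highest with anti-CTLA4.

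Among the Adam genes 6 were higher and 6 lower on early ablation arrays, with a median difference of 0.01. Adam8, an active sheddase found on leukocytes and on pancreatic tumour cells, read 6.16, 5.49 and 5.81 on early control arrays and 6.10, 7.01 and 6.57 on early ablation arrays. One early ablation array lay within the range of the controls. The difference was 0.74 (SE 0.303, adjusted p = 0.591), and the second detected Adam8 probe differed by 0.97. Adam4, a gene known from the rodent testis, had the opposite order, at 5.99, 6.27 and 5.92 on early control and 4.73, 4.82 and 5.14 on early ablation arrays. It had the smallest unadjusted p of the members (difference -1.16, SE 0.309, unadjusted p = 0.00211, adjusted p = 0.454, and adjusted p = 0.0467 with array weights), was detected on 3 early control arrays and 1 early ablation array, and its second probe differed by -0.34.

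The main sheddases did not separate. Adam17, which releases tumour necrosis factor and ligands of the epidermal growth factor receptor, read 8.62, 8.92 and 8.93 against 8.67, 9.16 and 8.93 (difference 0.09, SE 0.268, adjusted p = 0.942), with a 95% interval from -0.48 to 0.67. The sign turned without early control array 1 (-0.01) or early ablation array 2 (-0.03). Adam10, the sheddase of Notch receptors, read 5.73, 5.88 and 5.15 against 4.64, 5.41 and 5.63 (difference -0.36, SE 0.379, adjusted p = 0.816). Both other early ablation arrays lay within the control range, and array 1 lay below it. Adam10 was detected on 2 of 3 arrays in each of the 2 groups, so this order rests partly on undetected signal. Another detected probe of Adam10, Adam15, Adam17, Mmp1a, Mmp13 and Mmp28 gave a difference of the opposite sign to those of the brightest probe, so for these 6 of the 17 genes with several detected probes the early direction depends on the probe.

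The Adamts genes that cut aggrecan and versican were divided, 2 higher and 2 lower. Adamts1, an enzyme of this group that also restrains vessel growth, read 6.25, 7.03 and 6.37 on early control and 6.56, 6.63 and 6.24 on early ablation arrays. The groups overlapped throughout (difference -0.07, SE 0.337, adjusted p = 0.969), and with median scaling the value was 0.30. Of the other 4 Adamts genes, Adamts13 was undetected on all 6 early arrays and Adamts6 on the 3 early control arrays, so neither gives a measured difference. Adamts7 was higher by 0.66 and Adamts12 by 0.89. The larger of these differences was that of Adamts12, which cuts cartilage oligomeric matrix protein (SE 0.455, adjusted p = 0.627). Its values, given because it led this group, were 8.77, 8.10 and 8.48 on early control and 8.52, 9.35 and 10.16 on early ablation arrays, so that array 1 overlapped with the controls. Both Adamtsl genes, which have no protease domain, were higher by 0.15 and 0.28.

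The clustered Mmp genes did not share a direction: 3 of 6 were higher and 3 lower, with a median difference of 0.11 against 0.19 for the other 32 members. Mmp7, matrilysin, an enzyme of secretory epithelium, read 8.67, 9.21 and 7.73 on early control arrays and 10.34, 8.88 and 8.11 on early ablation arrays. It was highest on early ablation array 1, and without that array the difference of 0.57 (SE 0.651, adjusted p = 0.831) was -0.04. The values of Mmp12 and Mmp13 were picked after they were seen. Mmp12, the macrophage elastase, was lower on every early ablation array, at 7.001, 6.89 and 5.73 against 7.08, 7.83 and 7.86 (difference -1.05, SE 0.54, adjusted p = 0.63). Mmp13, a collagenase, read 5.19, 7.22 and 9.64 on the early ablation arrays, a span that enclosed all 3 early control arrays (7.98, 7.73 and 8.28). With an SE of 0.884 its difference of -0.65 is not informative. Mmp28, epilysin, an epithelial Mmp, was undetected on all 3 early control arrays (4.57, 4.97 and 4.54) and detected on 2 early ablation arrays (4.85, 5.44 and 5.38 on arrays 1 to 3). With early control signals raised to the lowest detected signal of their array, it was 1.05-fold higher on early ablation arrays (limma adjusted p = 0.572 without this raising). The undetected early ablation array kept its own signal, so this fold is no strict lower bound.

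Markers of other cell types also differed between these arrays. All 9 fibroblast markers were higher on early ablation arrays, with a median of 0.93 and 4 of them at unadjusted p under 0.05. Their summed signal ranged from 13.74 to 14.15 on early ablation against 12.43 to 13.23 on early control arrays. Smooth muscle and pericyte markers were higher in 6 of 6 detected (median 0.70), with 0 at unadjusted p under 0.05. Macrophage markers were higher in 5 of 5 detected (median 0.88; summed 13.45 to 14.39 against 13.02 to 13.45), and ductal markers lower in 7 of 7 (median -0.42; summed 15.82 to 16.11 against 16.15 to 16.40). Detected probes made up 41.3% to 43.5% on early ablation and 38.5% to 39.4% on early control arrays. The part of these shifts in the differences of the proteases was not tested.

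**Figure D3:**
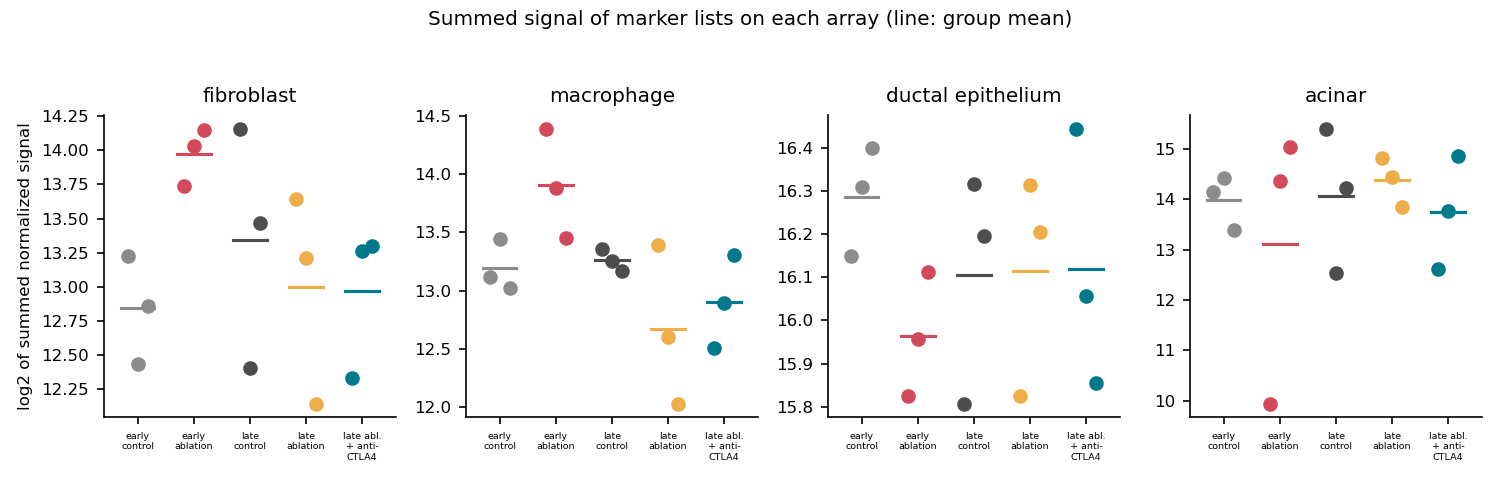
Each point is the log2 of the summed normalized signal of a marker list on 1 array, and lines are group means of the plotted values. The 3 early ablation arrays lie above the early control arrays for fibroblast and macrophage genes and below them for ductal genes, and early ablation array 1 lies far below the others for acinar genes.

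Other genes of pericellular proteolysis were read in the same comparison. In the plasminogen activator system 2 of 5 detected genes were higher and 3 lower, with a median of -0.08. The tissue-type activator Plat differed by 0.94 (SE 0.307, adjusted p = 0.544) and the inhibitor Serpinb2 by 2.26 (SE 1.01, adjusted p = 0.605). Cathepsins and their inhibitors were higher in 5 of 8, led by the collagen-cutting Ctsk at 1.92 (SE 0.657, adjusted p = 0.544), with Ctsl at 0.75. Of 17 other matrix proteases and regulators 11 were higher (median 0.15), with Spock2 at 0.64 and the serine protease Htra1 at 0.86. Ligands that Adam enzymes release were higher in 2 of 5 (median -0.36), with Nrg1 at 0.37 and Tnf at -0.85. None of these genes passed the adjusted threshold.

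The second comparison asks the same with GCV given to established tumours. Members were divided evenly, 19 higher and 19 lower on late ablation arrays (47.1% of all features were higher), with a median of -0.00. No member had an unadjusted p under 0.05, against 2.24% of all features, and the smallest adjusted p of a member was 0.9998. Leaving out single arrays gave up to 3 members at this unadjusted threshold, the 3 without late control array 1. In that setting 1071 features reached it, against 338 in the full fit. Same-numbered late control and late ablation arrays deviated together (correlations 0.136 to 0.583 in 3 of 3 pairs). For array 3 the pairing was weak, since late control array 3 correlated more with late ablation array 2 (0.266) than with late ablation array 3 (0.136). With the pair as a block 1 member, Adam32, reached an unadjusted limma p of 0.0335 (limma adjusted p = 0.9997), beside 577 of the 15098 features under 0.05. The groups did not overlap for Mmp24 and Adamtsl1, 2 of 38 against 4.52% of all features.

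The genes that separated the early groups overlapped here. Mmp14 read 12.49, 11.58 and 12.65 on late control arrays and 11.92, 12.71 and 12.14 on late ablation arrays. Late control array 2 was the lowest of the 6, and the means, 12.24 ± 0.576 and 12.26 ± 0.403, differed by 0.02 (SE 0.285), with a 95% interval from -0.59 to 0.63. Mmp2 read 12.64, 10.04 and 11.09 on late control and 12.81, 11.32 and 10.96 on late ablation arrays. In both groups array 1 was the highest by more than 1 unit, and these are the arrays that matched each other best over all genes. The Mmp2 difference was 0.44 (SE 0.575), -0.12 without late ablation array 1 and -0.17 without late control array 2. Mmp9 followed in part, at 8.71, 7.42 and 7.29 against 9.01, 7.58 and 6.26 (difference -0.19, SE 0.7).

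Timp2 was 11.32, 10.997 and 10.50 on late control arrays and 11.31, 10.63 and 10.47 on late ablation arrays. Nearly the same spread was seen in both groups (difference -0.14, SE 0.295). Timp3 was 11.27, 10.39 and 10.73 against 11.41, 11.35 and 10.72 (difference 0.37, SE 0.26), again with overlap. Timp1 was 12.62, 9.82 and 11.81 against 12.63, 12.37 and 11.03. Its difference of 0.60 (SE 0.782) rested on late control array 2 and was -0.20 without it.

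The 4 members with the smallest unadjusted p were Adam32, Mmp11, Adamts15 and Mmp24. Adam32, expressed mainly in testis, read 4.66, 4.68 and 4.87 on late control arrays, all undetected, and 4.78, 5.09 and 5.73 on late ablation arrays, 2 of them detected. With late control raised to its lowest detected signals Adam32 was 1.12-fold higher (limma unadjusted p = 0.0664 without this raising). This is no strict lower bound, since not every late ablation array was detected. Mmp11, a stromelysin of tumour stroma, read 7.03, 6.35 and 6.60 against 6.69, 6.09 and 5.64, with overlap (difference -0.52, SE 0.334). Adamts15, which cuts versican and aggrecan, read 6.41, 6.78 and 7.09 against 6.17, 6.83 and 5.76 (difference -0.50, SE 0.332). Mmp24, a membrane-type enzyme best known from neurons, read 8.37, 8.46 and 8.44 against 8.83, 8.79 and 8.56. The late ablation arrays lay above the late controls (difference 0.31, SE 0.206). Its other 2 detected probes differed by 0.49 and 0.29 in the same direction, although they correlated with this one at only -0.16 and 0.35 over the 15 arrays.

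Of the remaining named genes, Mmp7 read 8.59, 10.77 and 9.23 on late control arrays and 8.50, 8.40 and 9.21 on late ablation arrays. Late control array 2 held the highest value of all 15 arrays, and the difference of -0.83 (SE 0.651) was -0.21 without it. Adam17 read 8.67, 8.95 and 8.92 against 7.94, 9.12 and 8.43 (difference -0.35, SE 0.268), and Adam10 4.83, 5.76 and 5.18 against 4.57, 5.92 and 5.92 (difference 0.21, SE 0.379). Late ablation array 1 was the lowest of the 6 for both sheddases. Adam10, however, was detected on 2 of 3 arrays in each of the 2 groups, so its order rests partly on undetected signal. Adamts1 read 5.65, 5.79 and 6.51 against 6.37, 5.95 and 5.82 (difference 0.06, SE 0.337). Fibroblast markers were higher in 4 of 9 and lower in 5 of 9, with a median of -0.01.

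**Figure D4:**
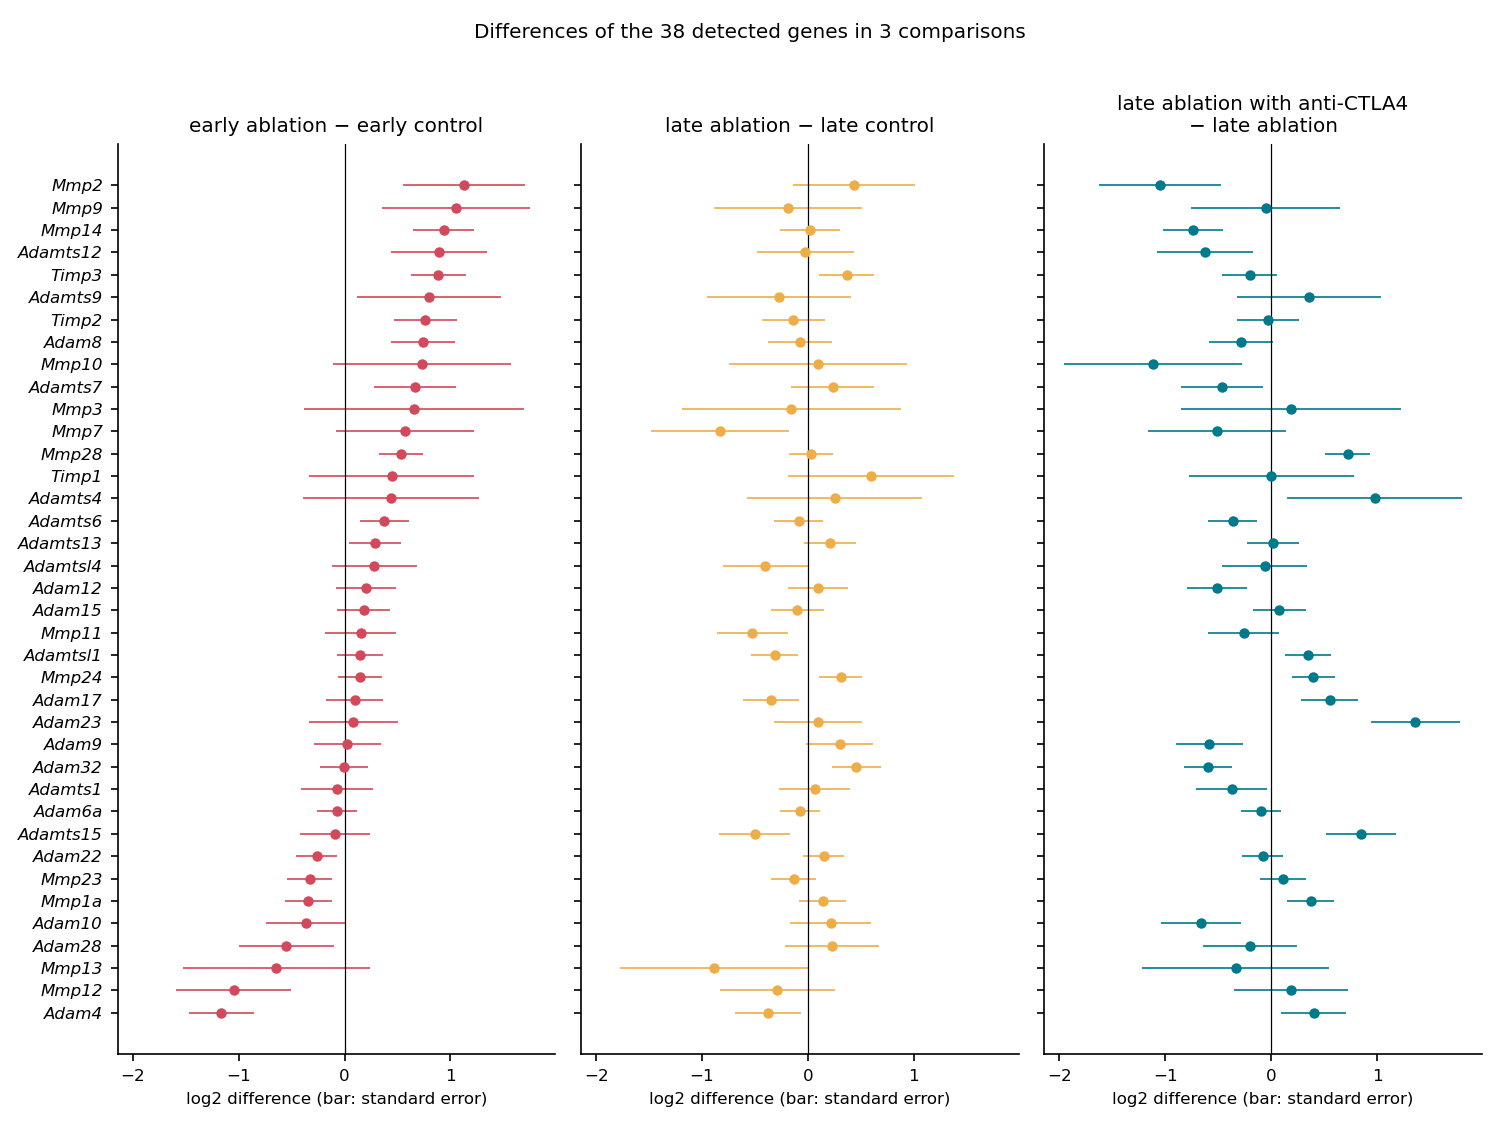
Points are log2 differences of group means and bars their SE for the 38 detected genes in 3 comparisons, with the genes in the order of the early ablation difference in every panel. With early ablation the gelatinases Mmp2 and Mmp9 have the highest differences (1.13 and 1.05) and Adam4 the lowest (-1.16), and no difference in any panel passed the adjusted threshold.

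Whether the ablation effect differed between stages was tested directly as the late difference minus the early difference. No member passed (smallest adjusted p = 0.999), and 2 members, Mmp14 and Timp2, had an unadjusted p under 0.05, against 4.43% of all features. For Mmp14 the late minus early value was -0.92 (SE 0.403, unadjusted p = 0.039, adjusted p = 0.999). Timp2 gave -0.90 (SE 0.417, unadjusted p = 0.0491, adjusted p = 0.999). The next smallest p-values were those of Adam8 (-0.82, SE 0.428) and Adam4 (0.79, SE 0.437). The value was above 0 in 13 of 38 members (49.3% of all features), with a median of -0.35 against -0.01. Leaving out single arrays moved that median between -0.46 and -0.02, the latter without late control array 1. The count of 2 members was 0 without early control array 3, late control array 1 or late ablation array 3, and 1 to 3 without any other single array. In the same contrast fibroblast markers were below 0 in 8 of 9 (median -0.95), smooth muscle and pericyte markers in 5 of 6 (median -1.32) and macrophage markers in 5 of 5 (median -1.0001), and ductal markers were above 0 in 7 of 7 (median 0.29). Their part in the values of the members was not tested.

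The third comparison sets the untreated groups side by side, late control against early control. Of the 38 members 23 were higher on late control arrays (50.4% of all features), with a median of 0.07 against 0.00. Unadjusted p was under 0.05 for 2 members, Mmp28 and Adam22, against 9.97% of all features. That count was 7 without late control array 2, 6 without late control array 1 and 1 without early control array 3. Features at this threshold were 1821 without late control array 2 and 951 without early control array 3, against 1506 in the full fit. The groups did not overlap for 7 members, 18.4% against 18.5% of all features.

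Mmp28 was detected on all 3 late control arrays, at 5.37, 5.51 and 5.23. All of them lay above the undetected early control arrays. With early control signals raised to the lowest detected signal of their array, the late control mean was at least 1.17-fold higher. Without this raising the limma unadjusted p was 0.00605 and the adjusted p 0.345. This comparison shares its early control arrays with the early ablation comparison, in which Mmp28 was 1.05-fold higher with early control raised likewise. The second detected Mmp28 probe had a correlation of 0.16 with this one, and differed by -0.16 between the stages and by -0.18 with early ablation. Adam22, a neuronal Adam without protease activity, read 5.26, 5.56 and 5.86 on early control and 4.999, 4.97 and 5.01 on late control arrays. It was lower on each late control array (difference -0.57, SE 0.194, adjusted p = 0.359), of which 1 was detected. On early ablation arrays it read 5.32, 5.29 and 5.27, and on late ablation arrays 4.86, 5.12 and 5.45.

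Adam8 and Adam4 came next, and both overlapped. Adam8 read 6.54, 6.15 and 6.63 on late control arrays (difference 0.62, SE 0.303), and 6.46, 6.06 and 6.56 on late ablation arrays. Adam4 read 4.80, 6.15 and 5.35 on late control arrays (difference -0.63, SE 0.309), and 4.69, 5.33 and 5.14 on late ablation arrays. For both genes the late control arrays lay on the same side of the early controls as the early ablation arrays did, on average, and the 2 comparisons share those early control arrays. Mmp14 differed by 0.37 (SE 0.285), Timp2 by 0.36 (SE 0.295), Timp3 by 0.11 (SE 0.26), Mmp2 by 0.58 (SE 0.575) and Mmp7 by 0.99 (SE 0.651). Fibroblast markers were higher in 9 of 9 here, with a median of 0.49.

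The last comparisons concern anti-CTLA4 with late ablation, against late ablation alone and against late control. Here Mmp28 and Adam23 were higher and Mmp14 lower on the anti-CTLA4 arrays than on late ablation arrays, without overlap. None of these passed the adjusted threshold. Against late ablation 16 of 38 members were higher (49.3% of all features), with a median of -0.07. Unadjusted p was under 0.05 for 5 members (Mmp28, Adam23 and Adamts15 higher, Mmp14 and Adam32 lower), 13.2% against 7.76% of all features. The groups did not overlap for 8 members, 21.1% against 10.3%. Among them Adam12 and Adam32 were undetected on all 3 anti-CTLA4 arrays and Adamtsl1 on all 3 late ablation arrays, so part of this count rests on undetected signal. Against late control 16 were higher (47.2% of all features), with a median of -0.12. Unadjusted p was under 0.05 for 6 members (Mmp28, Adam23, Mmp24 and Mmp1a higher, Mmp14 and Mmp11 lower), 15.8% against 6% of all features, and 8 did not overlap, against 9.4%. The 8 without overlap included Adam32, Adam6a and Adamts6, undetected on all 3 anti-CTLA4 arrays. Adam32 was undetected on all 3 late control arrays as well. Both comparisons share the anti-CTLA4 arrays. With array weights 4 members passed against late control, Mmp28 (0.76, limma adjusted p = 0.0217), Adam23 (1.91, adjusted p = 0.00365), Mmp24 (0.90, adjusted p = 0.0105) and Mmp14 (-0.90, adjusted p = 0.0393), and 0 against late ablation. With these weights 838 of the 15098 features passed against late control and 18 against late ablation.

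Mmp28 read 6.37, 6.04 and 5.96 on anti-CTLA4 arrays and 5.59, 5.23 and 5.38 on late ablation arrays. These were the 3 highest values of the gene over all 15 arrays. The means were 6.12 ± 0.217 and 5.40 ± 0.183, a difference of 0.72 (SE 0.21, unadjusted p = 0.00401, adjusted p = 0.373), and 0.75 against late control (adjusted p = 0.438). The second Mmp28 probe differed by 0.13 and 0.25.

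Adam23, a neuronal Adam that lacks protease activity, read 6.09, 7.26 and 7.01 on anti-CTLA4 arrays, 5.93, 5.05 and 5.29 on late ablation arrays and 5.98, 4.76 and 5.24 on late control arrays. Anti-CTLA4 array 1 lay only just above the highest array of either late group. The difference was 1.36 against late ablation (SE 0.417, adjusted p = 0.422) and 1.46 against late control (SE 0.417, adjusted p = 0.461). In the early groups the gene read 5.95, 5.73 and 6.25 without GCV and 5.19, 6.55 and 6.44 with it.

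Mmp14 read 11.34, 11.57 and 11.65 on anti-CTLA4 arrays, the lowest mean of the 5 groups at 11.52 ± 0.159. Every one of these arrays lay below every late ablation array, whereas late control array 2 (11.58) overlapped with them. The difference was -0.74 against late ablation (SE 0.285, unadjusted p = 0.0214, adjusted p = 0.549) and -0.72 against late control (SE 0.285, adjusted p = 0.713). Mmp2 read 9.86, 11.10 and 10.98, which overlapped with late ablation (difference -1.05, SE 0.575), and this difference was -0.49 without late ablation array 1. Mmp9 at 7.27, 8.11 and 7.31 lay within the late ablation range (difference -0.05, SE 0.7).

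Mmp24 read 8.74, 9.42 and 9.23, above all late control arrays (difference 0.71, SE 0.206, unadjusted p = 0.00412, adjusted p = 0.487), and overlapped with late ablation (0.40, SE 0.206). Its other 2 detected probes differed from late ablation by -0.62 and -0.45, and from late control by -0.13 and -0.16. Both comparisons of Mmp24 thus depend in sign on the probe. Adam32 read 4.65, 4.58 and 4.57, undetected on all 3 arrays (limma unadjusted p = 0.0215, adjusted p = 0.549). With these raised to the lowest detected signals late ablation was 1.05-fold higher, no strict lower bound, since not every late ablation array was detected. Adamts15 read 7.46, 6.53 and 7.32 (difference from late ablation 0.85, SE 0.332, adjusted p = 0.552), and array 2 overlapped. Mmp11 read 5.50, 5.81 and 6.32, below all late control arrays (-0.78, SE 0.334, adjusted p = 0.762) and overlapping with late ablation.

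Adam10 was undetected on all 3 anti-CTLA4 arrays (4.71, 5.04 and 4.67) and detected on 2 late ablation arrays (limma adjusted p = 0.695). With the anti-CTLA4 signals raised to the lowest detected signals, late ablation alone was 1.27-fold higher. The undetected late ablation array kept its own signal, so this is no strict lower bound. Adam17 read 9.30, 8.74 and 9.11, with overlap (0.55, SE 0.268, adjusted p = 0.656). The 2 main sheddases thus stood in opposite directions in their means, and neither difference passed. Adam4 read 5.77, 5.04 and 5.56 (0.40, SE 0.309), Adam8 5.77, 5.76 and 6.72 (-0.28, SE 0.303) and Adam22 4.93, 5.05 and 5.21 (-0.08, SE 0.194). All 3 overlapped with late ablation.

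By their brightest probes the inhibitors overlapped between anti-CTLA4 and late ablation arrays. Timp1 read 11.48, 11.87 and 12.69 (0.00, SE 0.782), Timp2 10.76, 10.70 and 10.87 (-0.03, SE 0.295) and Timp3 10.77, 11.20 and 10.90 (-0.20, SE 0.26) against late ablation. The 95% interval of the Timp2 difference ran from -0.66 to 0.60, and that of Timp1 from -1.68 to 1.68. The other 2 Timp3 probes differed by -1.11 (limma unadjusted p = 0.0033) and 0.14 (unadjusted p = 0.644), so the Timp3 probes share neither size nor sign here. Mmp7 read 7.12, 8.51 and 8.95 (-0.51, SE 0.651) and Adamts1 4.88, 6.08 and 6.06 (-0.37, SE 0.337). For both, anti-CTLA4 array 1 was the lowest of all 15 arrays, and without it the differences were 0.03 and 0.02. Adamts1 was detected on 2 of the 3 anti-CTLA4 arrays. The second detected Adamts1 probe correlated with this one at only 0.04 over the 15 arrays, and differed by 0.09 from late ablation. With early ablation it differed by -0.10, with late ablation by -0.13 and between the controls by 0.07.

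Fibroblast markers were lower in 8 of 9 against late ablation (median -0.42; summed 12.34 to 13.30 against 12.15 to 13.64) and in 9 of 9 against late control, and their part in the Mmp14 values was not tested. Acinar markers were lower than with late ablation in 5 of 5 (median -1.36). Of the other proteolysis genes, the proprotein convertase Pcsk5 was higher by 1.24 against late ablation (SE 0.225, limma adjusted p = 0.0796) and by 0.83 against late control (adjusted p = 0.432). Htra1 differed by -1.36 (SE 0.401, adjusted p = 0.386) and -1.53 (adjusted p = 0.418), and Plat differed from late ablation by -0.91 (SE 0.307, adjusted p = 0.489). All 8 cathepsin and cystatin genes were lower than with late ablation alone, with a median of -0.12, and against late control 4 were higher and 4 lower.

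Members differed in how far single arrays of a group lay apart. The SD within groups, pooled over the 5 groups, had a median of 0.42 log2 units. It was largest for Mmp3 (1.48), Mmp13 (1.26), Mmp10 (1.19), Adamts4 (1.17) and Timp1 (1.11), of which 3 belong to the chromosome 9 cluster. It was smallest for Adam6a (0.18), Adam22 (0.20), Mmp24 (0.22) and Mmp28 (0.23). Of these, Mmp24 was detected on all 15 arrays, but Adam6a on 4, Adam22 on 10 and Mmp28 on 11. Undetected signal thus enters the SD of these last 3 genes. The range of the 5 group means exceeded this SD 2 times over in 13 members, among them Mmp14, Mmp24, Mmp28, Timp2 and Timp3. The 13 also included Adam12, Adam32 and Adamts13, detected on 8, 5 and 4 arrays, so part of this count rests on undetected signal. The count was not set against all features, so it does not say whether members differed more between groups than other genes. For the stromelysin Mmp3, which activates precursors of other Mmp enzymes, values of 8.24 on late control array 1 and 8.05 on anti-CTLA4 array 3 stood beside 4.91 and 4.75, and 4.96 and 4.96, on the other arrays of those groups. Mmp3 was detected on 1 of 3 arrays in each of these groups, so its low values there are undetected signal. Its close relative Mmp10 read 8.43, 4.66 and 5.08 on late control and 7.62, 5.59 and 5.24 on late ablation arrays. Mmp10 was detected on 2 of the late control and 3 of the late ablation arrays. Both stromelysins were thus high on late control array 1 and late ablation array 1, as Mmp2 was. These 2 genes were picked for their spread after it was seen.

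Mmp2, Mmp14 and the 3 inhibitors were compared with each other over the 15 arrays, in 10 pairs. Over all 15 arrays Mmp2 and Timp3 had the highest coefficient, with Pearson's r = 0.74 (permutation p = 0.0018, adjusted 0.018) and Spearman's rho = 0.82 (permutation p = 0.0004, adjusted 0.004). It was 0.79 without the 2 arrays farthest from the Mmp2 median, 0.76 on the 12 arrays of the first table and 0.73 after group means were removed. Timp2 and Timp3 gave r = 0.67 (permutation p = 0.0052, adjusted 0.026) and rho = 0.58 (adjusted 0.051), 0.55 without the 2 farthest arrays and 0.52 within groups. Mmp2 and Mmp14 gave r = 0.59 (permutation p = 0.02, adjusted 0.065) and rho = 0.63 (adjusted 0.046), 0.33 within groups and 0.84 without the 2 arrays farthest from the Mmp2 median. Without those 2 arrays its r was above that of Mmp2 and Timp3, so the order of these pairs depends on them. Mmp14 and Timp2, which act together at the membrane, gave r = 0.28 (permutation p = 0.31, adjusted 0.35) and rho = 0.11 (permutation p = 0.7), and -0.35 within groups. The arrays share tissue composition, and fibroblast content was not held fixed in these values. The permutations shuffled values over all 15 arrays, without regard to the groups or to the late arrays that deviated together. These p-values treat the arrays as exchangeable and may be too small.

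**Figure D5:**
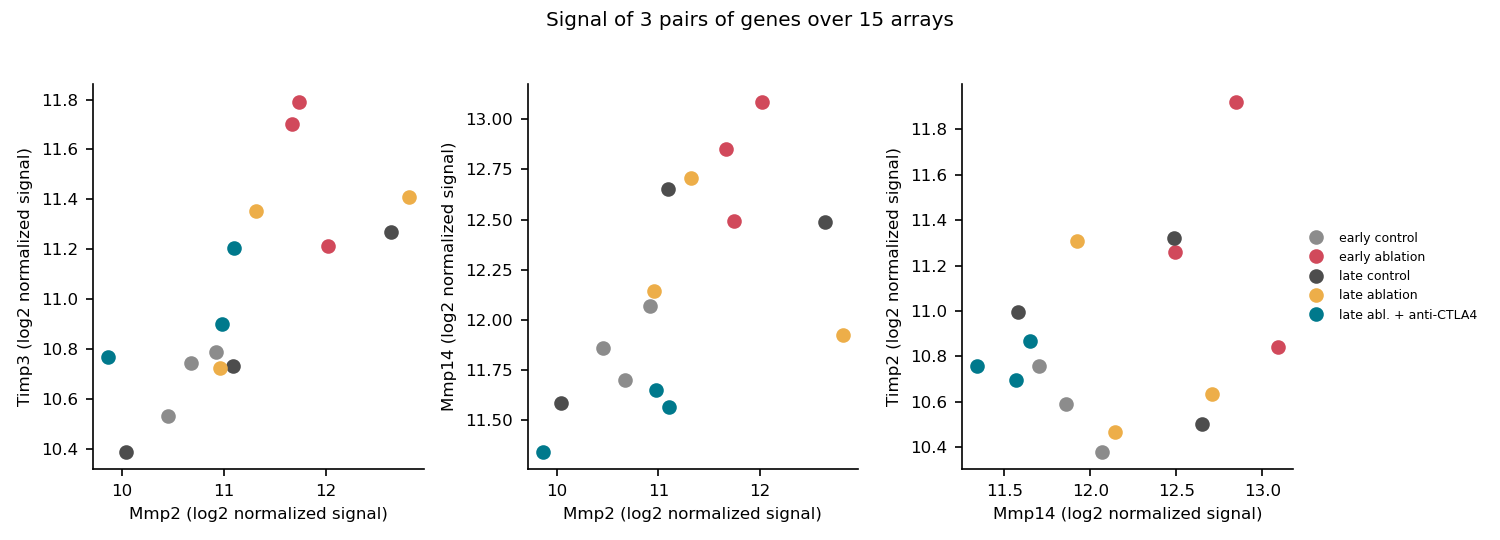
Each point is 1 of the 15 arrays, placed by the log2 normalized signal of 2 genes and coloured by group. Pearson's r is 0.74 for Mmp2 and Timp3 and 0.59 for Mmp2 and Mmp14 over all arrays (0.79 and 0.84 without the 2 arrays farthest from the Mmp2 median), and Mmp14 and Timp2 form no line (r = 0.28).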

How the data were processed

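Total RNA of pancreatic tumours was extracted with Trizol, copied into biotinylated cRNA and read on bead arrays, per the labels' protocols; GenomeStudio was used, per the submitters' processing notes, with no version stated. The deposited tables hold unnormalized bead signal in intensity units and, beside each signal, a detection p-value; the authors put 12 arrays in one table and the 3 anti-CTLA4 arrays in another. A deposited value table of the series, also in intensity units, was used as an alternative.

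Background was modelled by normexp (offset 16), with negative controls inferred from detection p, and the 15 arrays were quantile normalized together and put on the log2 scale with limma 3.58.1 in R 4.3.3. The brightest detected probe stood for a gene. Of the probes 34885 carry 1 symbol, 18 several and 10378 none, from the platform annotation. The 5 group means were fitted with lmFit and eBayes (two-sided, Benjamini-Hochberg over 15098 features). Where every array of a group was undetected, a fold was computed with its signals raised to the lowest detected signal of their array. It is called an at-least fold only if every array of the other group was detected. Correlations have two-sided permutation p-values from 100000 draws over all 15 arrays, with groups ignored. On data simulated for early ablation against early control over 15098 features, 1, 24, 43 and 46 of 50 features changed by 0.5, 1, 2 and 3 log2 units were recovered. Array signal carries no read depth, and the number of arrays limits the precision.

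Named with values on every array were members past adjusted p 0.05 (there were 0), the 4 with the smallest p in each comparison, and Mmp2, Mmp7, Mmp9, Mmp14, Timp1, Timp2, Timp3, Adam10, Adam17 and Adamts1. The members and lists were chosen with earlier results of these data known. Replicate numbers paired the late control and late ablation arrays only, as a pattern of the data that no label states: there 3 of 3 same-numbered pairs correlated above 0.1 (0.136 to 0.583) after group means were removed. In each other pair of groups at most 1 of 3 did. Over all groups, same-numbered arrays of different groups correlated between -0.276 and 0.583 (median -0.04), over 0.1 in 5 of 30 pairs. Differently numbered arrays correlated between -0.511 and 0.325 (median 0.01), over 0.1 in 18 of 60 pairs. Among these was late control array 3 with late ablation array 2 (0.266).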

Additional observations from a re-analysis of the deposited data

How the results depend on the processing

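Of 646 recomputed counts and medians 545 stayed close to the reported value and 101 moved; of 2060 other recomputed values, mostly differences of single genes, 1953 kept their direction and their side of the threshold, 74 reversed, 28 moved and 5 came to pass it. The causes were not tested. Without background correction the late minus early median was -0.16, 2 features passed the F-test, and Timp1 with anti-CTLA4 against late ablation was -0.00091. Median scaling gave 6 features with early ablation, 2 and 3 with anti-CTLA4 (against late ablation and late control), 12 in the F-test, 4 members at unadjusted p under 0.05 between the controls, and medians of 0.49 (early), 0.24 (controls) and -0.57 (late minus early). Its reversals were Adamts1 0.30 (early), Mmp9 0.18 (controls), Timp1 -0.12 (anti-CTLA4 against late ablation), and Timp1 -0.028 and Adamts1 -0.21 (late minus early). Without a detection filter all 78 genes on the array counted as members, and medians were 0.0055 (early) and -0.00049 (late minus early). Unadjusted p was under 0.05 for 2, 9 and 10 of the 78 (late, controls, anti-CTLA4 against late ablation). Beside them stood 958, 3625 and 2402 features. In this setting 7 features passed in each anti-CTLA4 comparison, and 80 features and 1 member passed the F-test. A detection p of 0.01 left 1 member in late minus early. Testing every detected probe called 5, 7 and 36 features (anti-CTLA4 against late ablation, against late control, F-test), and 12 arrays alone gave 0 members in late minus early and 0 features in the F-test. The deposited value table gave 1 feature (early), 2 and 4 (anti-CTLA4), 37 (F-test), and 1 member each in late ablation and late minus early. Where no feature count stands beside a member count here, the member count was not set against all features.

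Array weights gave the highest feature counts of these alternatives in the early, control, anti-CTLA4 and F-test comparisons, at 67 features (early), 285 (controls), 18 and 838 (anti-CTLA4) and 2031 (F-test). Members at unadjusted p under 0.05 were then 11 (early), 10 (controls) and 5 (late minus early), beside 2496, 2886 and 1308 features. Past the adjusted threshold were 1 member with early ablation (Adam4 -1.12, limma adjusted p = 0.0467), 7 in the F-test, and 4 with anti-CTLA4 against late control: Mmp28 0.76 (0.0217), Adam23 1.91 (0.00365), Mmp24 0.90 (0.0105) and Mmp14 -0.90 (0.0393). Weights reversed Mmp14 -0.16, Timp2 0.053 and Adamts1 -0.33 (late), Mmp9 0.58, Timp2 0.021 and Timp3 0.023 (anti-CTLA4 against late ablation), Mmp9 0.48, Timp2 0.074 and Adam17 -0.063 (against late control), and Timp1 -0.69 and Adamts1 -0.22 (late minus early). With the replicate number as a block in all groups 1 feature passed the F-test, against 5, and the block moved no other main count by over 1.5 times. With the replicate block in late control and late ablation only, added after seeing the data and used for that comparison alone, 1 member had an unadjusted p under 0.05. Leaving out early control arrays 2 and 3 together, chosen after seeing the data, left 1 early control array, so no counts are given. It reversed Timp1 -0.14 and Adamts1 0.23 (early) and Adamts1 -0.16 (late minus early).

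Leaving out single arrays gave 0 to 22 features (early), 0 to 1 (controls), 1 to 9 and 1 to 13 (anti-CTLA4), 0 to 7 (late minus early) and 1 to 71 (F-test), and 0 members past the adjusted threshold in the 6 comparisons. Members at unadjusted p under 0.05 ranged over 4 to 8, 0 to 3, 1 to 7, 4 to 6, 4 to 8 and 0 to 3 in the order early, late, controls, anti-CTLA4 against late ablation, against late control, and late minus early. Features at that threshold ranged over 728 to 1396, 245 to 1071, 951 to 1821, 838 to 1640, 631 to 1466 and 417 to 1154 in the same order. Member medians ranged over 0.11 to 0.32, -0.10 to 0.04, 0.03 to 0.21, -0.16 to -0.07, -0.17 to -0.03 and -0.46 to -0.022. Ranges that crossed 0 were, for early ablation, Adam17 -0.026 to 0.22, Adamts1 -0.22 to 0.17, Mmp7 -0.041 to 1.07 and Timp1 -0.058 to 1.39. For late ablation they were Adam10 -0.012 to 0.66, Adamts1 -0.10 to 0.33, Mmp14 -0.31 to 0.22, Mmp2 -0.17 to 1.13, Mmp9 -0.89 to 0.49, Timp1 -0.20 to 1.19 and Timp2 -0.39 to 0.053. Between the controls they were Adam17 -0.080 to 0.11, Mmp2 -0.11 to 1.19, Mmp9 -0.50 to 0.21, Timp1 -0.95 to 0.44 and Timp3 -0.13 to 0.31. Against late ablation anti-CTLA4 gave Adamts1 -0.57 to 0.022, Mmp7 -0.89 to 0.027, Mmp9 -0.73 to 0.64, Timp1 -0.49 to 0.31 and Timp2 -0.20 to 0.22. Against late control it gave Adamts1 -0.51 to 0.085, Mmp2 -1.22 to 0.080, Mmp9 -0.51 to 0.21, Timp1 -0.20 to 1.20, Timp2 -0.39 to 0.024 and Timp3 -0.041 to 0.40. Late minus early gave Adamts1 -0.11 to 0.40, Mmp2 -1.30 to 0.0045 and Timp1 -0.79 to 0.75. A block for the slide was not run, because the file headers used here name no slide.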
